A study of Mus musculus with 42 samples.

Results

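Genes of the mouse PRAME family, Pramel1, Pramel4, Pramel5, Pramel6, Pramel7, Pramef6, Pramef8, Pramef12, Pramef17 and Pramef25, were followed through the 2- and 4-cell stages and through treatments that lower NAD+ or block histone deacetylases. All 10 of the 10 rows were found among 15737 genes, 5 of them by symbol and 5 under a newer symbol that RefSeq gives as a synonym. These were Pramel11 (Pramef6), Pramel12 (Pramef8), Pramel13 (Pramef12), Pramel14 (Pramef17) and Pramel16 (Pramef25), and the newer symbols are used below. By symbol or RefSeq synonym, the rows held 38 other genes of the family, 48 in all.

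PRAME proteins are built of leucine-rich repeats. Several of them, human PRAME among them, act as substrate receptors of ubiquitin ligases that contain CUL2 and the elongins B and C, and so choose which proteins are marked for degradation. PRAMEL7 is known for promoting the degradation of UHRF1, the cofactor of the maintenance DNA methyltransferase DNMT1, and it marks the naive state of embryonic stem cells and the inner cell mass, as does PRAMEL6. In the mouse the family has expanded into large gene clusters that are expressed in germ cells and early embryos.

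Embryos of ICR mice were collected at 34 h (early 2-cell), 48 h (late 2-cell) and 58 h (4-cell) after hCG, the hormone injected to induce ovulation. Early 2-cell embryos were untreated, and at both later stages controls were set beside embryos given 0.01 µM FK866, an inhibitor of the NAD+ salvage enzyme NAMPT, or FK866 with 10 µM NMN, the product of NAMPT. Other late 2-cell embryos had received 10 nM TSA, an inhibitor of class I and II histone deacetylases. The rest had been injected as zygotes with Sirt1 siRNA, Trim21 mRNA and an antibody against SIRT1, an NAD+-dependent deacetylase. Vehicle controls received 0.05% DMSO. The study describes FK866 treatment of zygotes and TSA treatment from the early 2-cell to the 4-cell stage, so that the exposures began at different times. The study's methods name zygotes injected with scrambled siRNA and Trim21 mRNA as the control of the knockdown, whereas the labels and headers name no injected control, so that the knockdown is compared here with the late 2-cell control column. The 9 groups had 2 samples each, 18 in all, and every library was made from a pool of 3 embryos. The study calls the 2 samples biological replicates. Nothing in the labels says that the pools came from separate matings, so that the spread between libraries may be technical.

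The deposited values are FPKM, reads scaled to exon length and library size, in 1 column for each group. Values multiplied by exon length fell on whole reads, which separated 7 columns into 2 libraries each and showed 1 library in the other 2, 16 libraries in all with 3169677 to 10003481 reads. All levels below are FPKM per library, the column value divided by its number of libraries, and A denotes the larger library of a column and B the smaller. A gene was called when log2(FPKM per library + 1) differed by more than 1, that is by more than 2-fold, between columns of which at least one reached 1 FPKM per library. The added 1 makes the change of weakly expressed genes look smaller than it was. FPKM is relative to all reads, so that less of one RNA and more of the others cannot be told apart. Whether the libraries of the columns overlapped was recorded beside each call, and p-values were not computed.

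Header and tables disagree on the group of 5 columns, for which both names are given here, the header first. They agree on the late 2-cell control, FK866 and FK866+NMN columns. The early 2-cell column was not matched to the tables and is named by its header alone. The TSA/4-cell control column is headed late 2-cell TSA and holds the 4-cell control values of the tables, the Sirt1/4-cell FK866 column those of 4-cell FK866 embryos, and the 4-cell control/FK866+NMN column those of 4-cell FK866+NMN embryos, in 84 of 84 listed genes each. The 4-cell FK866/TSA column is headed 4-cell FK866 and changed against late 2-cell control in the direction that the tables list for TSA in 1200 of 1203 genes, against 1096 in the next best column. The 4-cell FK866+NMN/Sirt1 column did so for Sirt1 knockdown in 716 of 821 genes, against 703 in the next best, which is a weak match. The level of Sirt1 itself, the gene targeted in the knockdown, was 86.6 and 66.2 FPKM in the late 2-cell control libraries, 32.4 and 73.1 FPKM in those headed late 2-cell Sirt1, and 11.3 FPKM in the 4-cell FK866+NMN/Sirt1 library. It was also low, at 7.61 FPKM, in the 4-cell FK866/TSA library. The headers thus went against the targeted gene in one of the libraries labelled late 2-cell Sirt1, and every result on these 5 columns is given under both readings.

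A list of 15 genes of the 2-cell embryo summed to between 187 and 529 FPKM in the early 2-cell and the late 2-cell control, FK866 and FK866+NMN columns. It summed to 24.5, 46.3 and 60.9 FPKM in the TSA/4-cell control, Sirt1/4-cell FK866 and 4-cell control/FK866+NMN columns. In the single libraries of the 4-cell FK866/TSA and 4-cell FK866+NMN/Sirt1 columns it summed to 334 and 437 FPKM. The 7 oocyte genes in the rows summed to 1888 FPKM in early 2-cell embryos and to between 38.0 and 461 FPKM in the other columns. The 4 cumulus and granulosa genes summed to at most 8.12 FPKM, the 1 sperm and testis gene had at most 1.90 FPKM, and the 5 fibroblast and blood genes to between 2.11 and 21.1 FPKM except in the 4-cell FK866/TSA library, where they summed to 135 FPKM. Their part in the results was not tested.

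Pramel7 and Pramel6 lie next to each other on chromosome 2 of GRCm38 (mm10), Pramel7 at chr2:87489087-87497093 on the minus strand and Pramel6 at chr2:87506565-87510872 on the plus strand. The other 8 genes lie in one cluster on chromosome 4, from Pramel1 at chr4:143394428-143400160 to Pramel13 at chr4:144391674-144408464. The promoter table used here, from RefSeq, covers 250 bases before to 50 bases after the transcription start on GRCm38.p6 and was matched for 9 of the 10 genes, all but Pramel12. Over the 36 pairs of these promoters the median identity was 51.1%, and 2 pairs stood out, Pramel4 with Pramel5 at 83.4% and Pramel7 with Pramel14 at 76.1%, against 57.8% for the next pair. The promoters of these 4 genes are shown because these pairs were the most alike, the second across the 2 chromosomes. They lie at chr2:87492369-87492668 on the minus strand (Pramel7, within the gene's GENCODE span), chr4:143994320-143994619 on the minus strand (Pramel14), chr4:144058875-144059174 on the plus strand (Pramel4) and chr4:144280417-144280716 on the minus strand (Pramel5). Capitals mark the longest run shared by each pair, 23 bases that begin 76 bases before the start of Pramel7 and 75 before that of Pramel14, and 111 bases that begin 228 before the start of Pramel4 and 234 before that of Pramel5.
Pramel7: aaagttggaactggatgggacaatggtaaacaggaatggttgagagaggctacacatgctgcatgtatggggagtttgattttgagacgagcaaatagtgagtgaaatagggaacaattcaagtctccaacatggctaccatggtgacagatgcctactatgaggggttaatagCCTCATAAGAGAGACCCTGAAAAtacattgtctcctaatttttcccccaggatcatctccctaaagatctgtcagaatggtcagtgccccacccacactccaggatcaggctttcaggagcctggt
Pramel14: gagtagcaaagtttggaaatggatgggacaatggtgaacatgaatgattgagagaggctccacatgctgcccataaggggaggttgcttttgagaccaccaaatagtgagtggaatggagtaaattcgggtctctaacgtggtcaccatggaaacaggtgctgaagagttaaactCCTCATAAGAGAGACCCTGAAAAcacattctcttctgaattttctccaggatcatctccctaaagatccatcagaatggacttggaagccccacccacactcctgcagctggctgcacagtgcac
Pramel4: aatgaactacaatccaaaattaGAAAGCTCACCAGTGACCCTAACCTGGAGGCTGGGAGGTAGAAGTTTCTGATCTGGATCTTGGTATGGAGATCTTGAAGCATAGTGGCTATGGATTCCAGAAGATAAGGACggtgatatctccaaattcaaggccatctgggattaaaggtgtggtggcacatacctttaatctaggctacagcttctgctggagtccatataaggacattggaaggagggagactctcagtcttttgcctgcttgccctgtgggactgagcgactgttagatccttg
Pramel5: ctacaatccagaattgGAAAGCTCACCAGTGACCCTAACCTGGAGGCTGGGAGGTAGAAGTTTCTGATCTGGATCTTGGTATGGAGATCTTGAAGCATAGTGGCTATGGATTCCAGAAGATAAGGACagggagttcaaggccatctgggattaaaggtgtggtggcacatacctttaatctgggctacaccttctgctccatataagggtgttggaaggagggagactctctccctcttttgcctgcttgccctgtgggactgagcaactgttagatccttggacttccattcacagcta

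Among the other family rows, 30 of 38 had a promoter sequence. That of Pramel30 was 97.3% identical to Pramel14 and 74.8% to Pramel7, and that of Pramel24 was 84.7% identical to Pramel11. No member promoter held TATAAA, TTCNNNGAA (the STAT motif) or CACGTG (an E-box) on either strand, which were found in 14.2%, 8.47% and 7.24% of 27025 mouse promoters. TAATCC, the core bound by OTX and OBOX homeodomain proteins, was found in 3 of 9 members (Pramel11, Pramel4 and Pramel5) and in 7.16% of all promoters. In Pramel4 and Pramel5 it lay in sequence that these promoters share, so these matches are not independent. The CCAAT box was found in 5 of 9, in Pramel1, Pramel11, Pramel4, Pramel5 and Pramel6, and in 37.9% of all. AAGGTCA (the NR5A motif) was found only in Pramel11 and GGGCGG (the GC box) only in Pramel1, against 4.66% and 35.9% of all promoters. The Pramel1 promoter also differed in base composition, with 60.0% G and C and 20 CG pairs, where the other 8 had 40.3% to 48.7% and 0 to 7, and the median of all promoters was 52.7% and 7. These matches describe letters in the window and not bound sites.

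How far reads can be told apart between copies bears on the levels. Of all 100-base windows of the exons, none was shared with another gene in Pramel7, Pramel6, Pramel1, Pramel12 and Pramel13, and 3.61% were shared in Pramel5. The share was 17.9% in Pramel11, mostly with Pramel21, 26.5% in Pramel16, 56.3% in Pramel14, all with Pramel30, and 77.4% in Pramel4, nearly all with Gm13102. The values of the last 4 genes are therefore uncertain to that extent.

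Pramel7, the UHRF1-directed member, had the highest mean level of the 10 genes, 155 FPKM over the 9 columns, followed by Pramel13 at 108 FPKM. Early 2-cell embryos had 2.16 and 0.303 FPKM, or 26 and 3 reads. Late 2-cell libraries had 86.5 and 89.9 FPKM in controls, 78.3 and 69.9 FPKM with FK866, and 122 and 61.8 FPKM with FK866+NMN. The levels were highest, between 313 and 429 FPKM, in the 6 libraries of the TSA/4-cell control, Sirt1/4-cell FK866 and 4-cell control/FK866+NMN columns, none of which overlapped with any other library. The 4-cell FK866+NMN/Sirt1 library had 76.4 FPKM, within the range of the late 2-cell libraries, while the 4-cell FK866/TSA library had 1 read among 4682639.

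Pramel6, its neighbour and the other member that marks naive pluripotent cells, followed Pramel7 at a lower level. The early 2-cell libraries had 2.47 FPKM and no read, and the late 2-cell controls 22.5 and 20.9 FPKM. FK866 libraries had 11.0 and 21.5 FPKM and FK866+NMN libraries 39.4 and 35.3 FPKM. The same 6 libraries in which Pramel7 was highest had the highest Pramel6 levels, between 42.0 and 115 FPKM. The 4-cell FK866/TSA library again had 1 read, and the 4-cell FK866+NMN/Sirt1 library 7.57 FPKM. Over the 9 columns, Pearson's r between the log2 levels of Pramel7 and Pramel6 was 0.97, the highest of the 45 pairs of members, given as a description over columns that differ in stage and depth.

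Pramel14 and Pramel5, on chromosome 4, were low where Pramel7 was low, in early 2-cell embryos and in the 4-cell FK866/TSA library. Pramel14 had 1.21 and 0.614 FPKM in early 2-cell embryos, 50.8 and 24.0 FPKM in late 2-cell controls and 2 reads in the 4-cell FK866/TSA library. Its highest level was in FK866+NMN late 2-cell embryos, at 47.4 and 56.5 FPKM, and the TSA/4-cell control, Sirt1/4-cell FK866 and 4-cell control/FK866+NMN columns had only 9.54 to 16.1 FPKM, below every late 2-cell library of the 3 undisputed columns. Pramel5 had 2 reads in each early 2-cell library, 54.2 and 9.29 FPKM in late 2-cell controls, and 11 reads or 1.02 FPKM in the 4-cell FK866/TSA library. The control libraries of Pramel5 thus lay far apart. Its highest column was TSA/4-cell control, with 52.4 and 15.1 FPKM, within the range of the controls.

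The 4-cell FK866/TSA library therefore split the members. Pramel7, Pramel6, Pramel14 and Pramel5 had 1, 1, 2 and 11 reads there, and Pramel1 none, while Pramel13, Pramel16, Pramel4, Pramel12 and Pramel11 had 974, 459, 451, 130 and 117 reads. Pramel30, singled out here for its promoter and exons shared with Pramel14 and not by a rule on its level, was listed at 0 in that column and at 35.7 FPKM in late 2-cell controls. Pramel7, Pramel14 and Pramel30 were all at or near 0 in this library and at 1.23, 0.914 and 1.80 FPKM in the early 2-cell column, although the reads of Pramel14 and Pramel30 cannot be told apart over their shared exons. Pramel4 and Pramel5, the other promoter pair, differed there, with 38.7 against 1.02 FPKM. Pramel45, the next gene by promoter identity to Pramel7 at 60.8%, had 36.7 FPKM in this library, 32.2 FPKM in early and 1.07 FPKM in late 2-cell control embryos. By limits set after the values were seen, under 3 FPKM in both the early 2-cell and the 4-cell FK866/TSA column and at least 10 FPKM in late 2-cell control, the low levels were shared by 4 of 10 members (Pramel7, Pramel6, Pramel14 and Pramel5) and 3 of 38 other family rows (Pramel30, Pramel35 and Pramel38). Pramel42 and Pramel33 had a like course but missed these limits. In early 2-cell, late 2-cell control and 4-cell FK866/TSA, Pramel42 had 0.964, 25.7 and 3.46 FPKM and Pramel33 3.97, 51.6 and 6.50 FPKM. The limits were drawn from these values and the share over all genes was not computed, so the counts do not set the members apart from other rows.

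Pramel13, known to be needed for the upkeep of spermatogonia, had the opposite course and was the member with the highest early level. The early 2-cell libraries had 299 and 336 FPKM. Late 2-cell libraries ranged from 85.8 to 155 FPKM across control, FK866 and FK866+NMN, and the TSA/4-cell control, Sirt1/4-cell FK866 and 4-cell control/FK866+NMN libraries from 21.5 to 66.2 FPKM. These 3 ranges did not overlap. The single 4-cell FK866/TSA and 4-cell FK866+NMN/Sirt1 libraries had 80.8 and 109 FPKM, near and within the late 2-cell range.

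Pramel16 was highest in the 4-cell FK866+NMN/Sirt1 column, which is of the 4-cell stage by the header and of the late 2-cell stage by the tables. It had 9.16 and 9.21 FPKM in early 2-cell embryos, 38.5 and 44.1 FPKM in late 2-cell controls and 58.3 and 57.6 FPKM with FK866, where each pair of libraries lay close together and apart from the next. The late 2-cell FK866+NMN libraries lay far apart, at 11.5 and 52.4 FPKM. Its libraries differed by more than 2-fold in 3 of 6 columns that reached 1 FPKM. The 4-cell FK866+NMN/Sirt1 library had 122 FPKM and the 4-cell FK866/TSA library 58.2 FPKM. The 6 libraries with the highest Pramel7 levels had 0.128 to 9.10 FPKM of Pramel16.

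Pramel12 and Pramel11 had mean levels of 7.04 and 6.09 FPKM over the columns and no read in either library of the TSA/4-cell control column. Pramel12 had 4.42 and 9.13 FPKM in early 2-cell embryos, 3.74 and 10.4 FPKM in late 2-cell controls and at most 2.72 FPKM in the Sirt1/4-cell FK866 and 4-cell control/FK866+NMN columns. Its highest column was 4-cell FK866+NMN/Sirt1, at 14.2 FPKM, and its highest library was B of late 2-cell FK866+NMN, at 27.6 FPKM. Pramel11 had 5.86 and 0.413 FPKM in early 2-cell embryos, 8.89 and 3.68 FPKM in late 2-cell controls and its highest level, 17.9 FPKM, in the 4-cell FK866+NMN/Sirt1 library. Both genes had no read in library A of the late 2-cell FK866+NMN column and 616 and 110 reads in library B, so that the column values rest on 1 library.

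Pramel4 was found in all 16 libraries, from 1.56 FPKM in an early 2-cell library to 109 FPKM in a library of the 4-cell control/FK866+NMN column. Its libraries lay far apart in the FK866+NMN column, at 7.73 and 50.3 FPKM, and in the TSA/4-cell control column, at 10.7 and 54.0 FPKM. Pramel1, a gene otherwise known from testis, was read in 4 of 16 libraries, with 40 reads in one late 2-cell control library and none in the other, 58 reads in one Sirt1/4-cell FK866 library and none in the other, and 68 and 8 reads in the 4-cell control/FK866+NMN libraries. Its libraries differed by more than 2-fold in 3 of 3 columns that reached 1 FPKM. Pramel1 is included in the counts below, but each of its calls was lost when 1 library was left out.

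**Figure D1:**
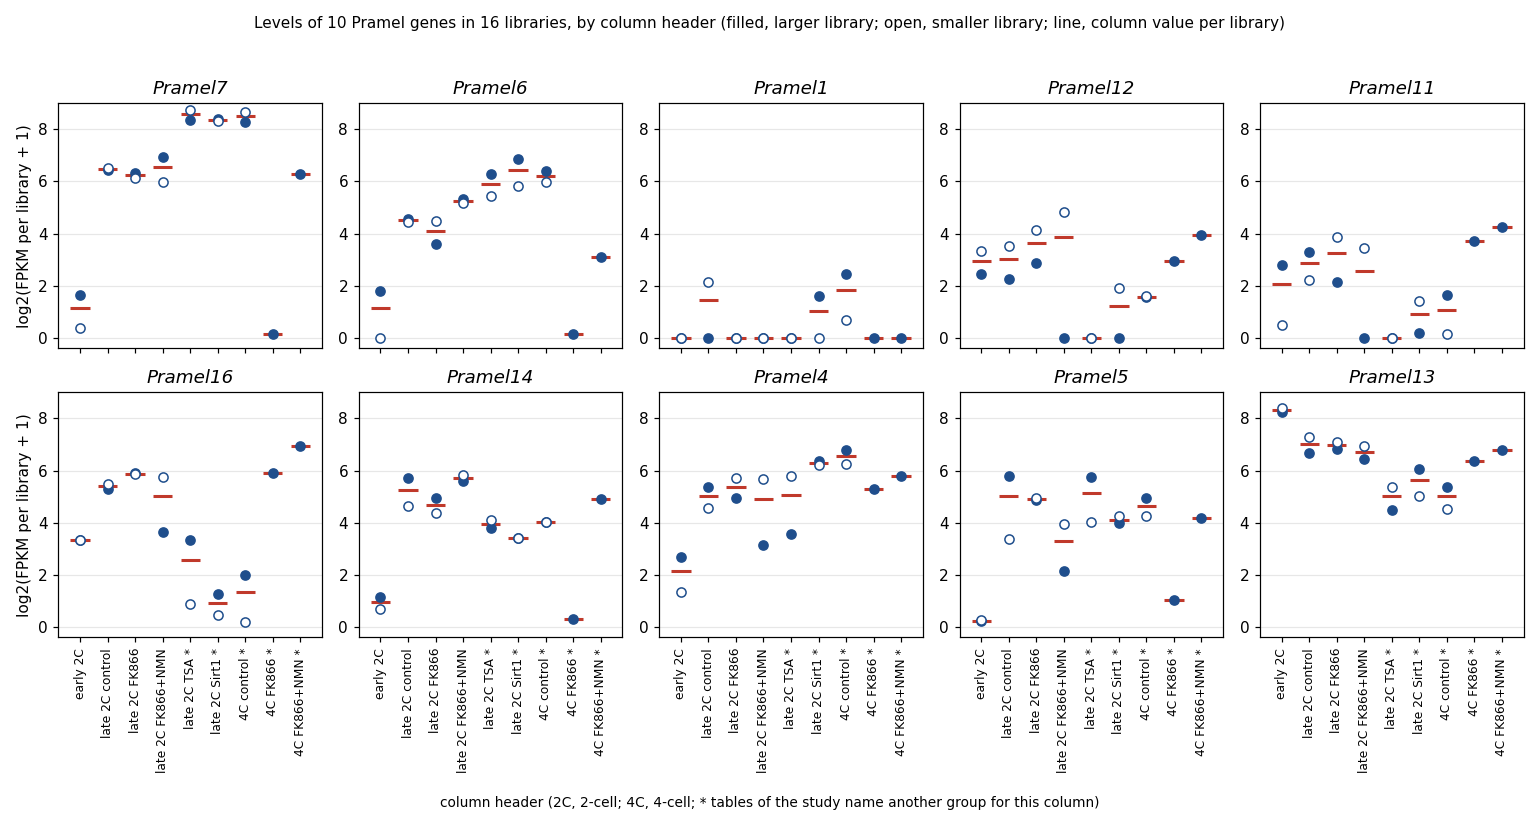
Level of each of the 10 genes as log2(FPKM per library + 1) in the 16 libraries, in columns named by header, with filled points for the larger library, open points for the smaller and a line for the column value per library, and with an asterisk where the tables name another group. Pramel7, Pramel6, Pramel14 and Pramel5 sat near 0 in early 2-cell embryos and in the column headed 4-cell FK866, whereas Pramel13 was highest in early 2-cell embryos at 318 FPKM.

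The make-up of the 10 genes turned over between the stages. Pramel13 made up 90.7% and 94.0% of the summed FPKM of the members in the early 2-cell libraries, and Pramel7 0.655% and 0.0846%. In late 2-cell controls the shares of Pramel13 were 25.1% and 40.4% and those of Pramel7 21.3% and 23.5%. In the TSA/4-cell control column Pramel7 held 64.4% and 71.8% and Pramel13 4.18% and 6.82%. The sums themselves were 329.8 and 358 FPKM in early 2-cell, 407 and 383 FPKM in late 2-cell control and 514 and 598 FPKM in TSA/4-cell control libraries. The lowest sum, 198 FPKM, was that of the 4-cell FK866/TSA library, of which Pramel7 held 0.0506%. The 38 other family rows, led by Oog3, an oogenesin of the oocyte, and by Pramel25, summed to 5626 FPKM per library in early 2-cell embryos, 3401 in late 2-cell controls and 548 in the TSA/4-cell control column. The 10 members thus made up 5.76% of the summed level of the 48 family rows in early 2-cell embryos, 10.4% in late 2-cell controls, 44.0% to 50.4% in the TSA/4-cell control, Sirt1/4-cell FK866 and 4-cell control/FK866+NMN columns, and 5.00% and 10.1% in the 4-cell FK866/TSA and 4-cell FK866+NMN/Sirt1 libraries. These rows were found by symbol or synonym, so that Gm13102, which shares most of its exon sequence windows with Pramel4, is not in the sums.

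**Figure D2:**
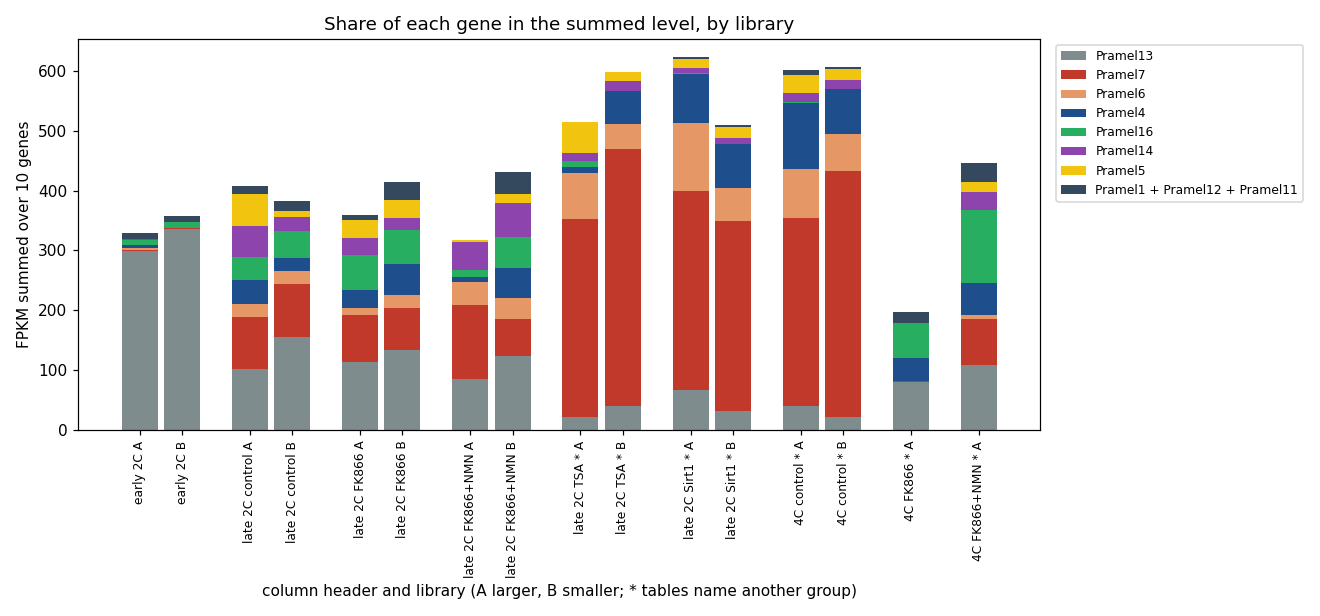
FPKM of the 10 genes stacked for each library, named by column header with A for the larger library, B for the smaller and an asterisk where the tables name another group, with 3 low genes joined. The grey part, Pramel13, fell from 90.7% or more of the early 2-cell bars to 10.6% or less in the 3 columns where the red part, Pramel7, held 51.9% or more.

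The early 2-cell column is named by its header alone, while header and tables agree on the late 2-cell control column. Between these stages 7 of 10 members were called higher. These were Pramel7, Pramel6, Pramel14, Pramel5, Pramel4, Pramel16 and Pramel1, where 32.2% of 9514 genes were higher, and only Pramel13 was called lower, where 31.7% of genes were. For 6 of the 7 both late libraries lay above both early ones, as in 24.5% of genes, with Pramel1 the exception, and Pramel13 lay below in both, as in 27.1%. The median log2 fold change was 2.45 over the members, -2.18 over the 38 other family rows, of which 8 were called higher and 23 lower, and -0.0032 over all genes.

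The rise of Pramel7 was 71.6-fold (log2 fold change 5.32), or 291-fold without early library A and 40.8-fold without early library B. That of Pramel6 was 17.6-fold (3.34), or 8.79-fold without early library B, and without A no early read was left. Pramel14 rose 40.9-fold (4.33), with 26.2-fold to 60.9-fold when 1 library was left out. Pramel5 rose 186-fold (4.81) from 4 reads over both early libraries, or 54.4-fold without late control library A and 317-fold without B. Pramel4 rose 9.02-fold (2.85), with a range of 5.82-fold to 20.0-fold, and Pramel16 4.49-fold (2.05). These calls held with each library left out, and only the call of Pramel1 was lost. Pramel13 fell 2.48-fold (log2 fold change -1.30). Pramel12 and Pramel11 were not called, at log2 fold changes of 0.055 and 0.82 with overlapping libraries, although the plain ratio of Pramel11 was 2.00.

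FK866 changed the late 2-cell levels of the members little. No member was called higher, where 18.1% of 9022 genes were, and 1 of 10 was called lower, where 20.0% were. That one was Pramel1, on the 40 reads of a single control library, so that no call had its libraries apart, where 9.42% of genes were higher and 10.9% lower in that way. The members had a median of -0.083 on the log2 scale, against 0.66 over the other family rows, of which 7 of 38 were called higher and none lower, and a median of -0.065 in all genes. Pramel7 had 78.3 and 69.9 FPKM against 86.5 and 89.9 in controls, libraries that did not overlap at a log2 fold change of only -0.25. Pramel16 had 58.3 and 57.6 FPKM against 38.5 and 44.1, likewise without overlap, at 0.48. The FK866 libraries of the other 8 members overlapped those of the controls or, for Pramel1, equalled the lower one at 0.

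When NMN was added to FK866, Pramel6 and Pramel14 were called higher and Pramel5 lower, 2 and 1 of 9 genes compared, where 18.9% and 33.3% of 8605 genes were. All 3 calls had libraries apart, where 5.69% of genes were higher and 20.6% lower in that way, but none of the 3 held with every library left out. Pramel6 was 2.30-fold higher (log2 fold change 1.15), at a level above that of the controls, and 0.77 on the log2 scale without FK866 library A. Pramel14 was 2.10-fold higher (1.04), with 47.4 and 56.5 FPKM against 29.9 and 19.4 FPKM, and 0.78 without FK866 library B or 0.91 without FK866+NMN library B. Pramel5 was 3.29-fold lower (-1.61), with 3.44 and 14.3 FPKM against 28.5 and 29.9 FPKM, and -0.98 without FK866+NMN library A or 8.48-fold lower without B. The balance turned with the library, with 3 members higher and 0 lower without FK866+NMN library A and 1 higher and 5 lower without B. The libraries of the FK866+NMN column differed by more than 2-fold in 68.5% of 6134 genes, more than in any other column, and in 5 of 9 members.

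By the headers, the comparison of TSA with late 2-cell control showed Pramel7 and Pramel6 higher, 2 of 10, where 23.2% of 8648 genes were, and 6 of 10 lower, where 41.3% were. By the tables these columns are the 4-cell and the late 2-cell control, so the same values are then the change from one stage to the next. Pramel7 rose 4.31-fold (log2 fold change 2.09), from 86.5 and 89.9 FPKM to 331 and 429 FPKM, and Pramel6 rose 2.74-fold (1.41), or by 0.92 without library A of the TSA/4-cell control column, which ends the call. Pramel13 fell 4.12-fold (-2.01). Pramel16 fell 8.33-fold (-2.83), or 50.4-fold without library A of the TSA/4-cell control column and 4.54-fold without B. Pramel14 fell 2.58-fold (-1.31), a call lost at -0.69 without late control library A. Libraries were apart for both higher and 5 of the 6 lower genes, all but Pramel1, where 17.7% of genes were higher and 28.1% lower in that way. Pramel12 and Pramel11 fell from 283 and 153 reads to none, which is at least 132-fold and at least 58.5-fold lower when 3 reads over the column are taken as the floor. Pramel4 and Pramel5 stayed within 2-fold. The median of the members was -1.38, or -1.32 with the genes at 0 set to the floor, against -1.47 for the other family rows and -0.44 for all genes.

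By the tables, TSA is the single library of the 4-cell FK866/TSA column, and the members then moved another way. None of 10 was called higher, where 30.1% of 9420 genes were, and 5 were called lower, Pramel7, Pramel6, Pramel14, Pramel5 and Pramel1, where 29.7% were. The first 4 of them lay below both control libraries, and in all genes 21.2% were lower and 30.0% higher with libraries apart. The other family rows had 20 higher and 8 lower among 37 compared. Relative to late 2-cell control, the reads of Pramel7 went from 2003 over both control libraries to 1, a ratio of 878 with a 95% exact interval of 157 to 34678. Pramel6 went from 487 reads to 1, a ratio of 213 (38.1 to 8444), and Pramel14 from 756 to 2, a ratio of 166 (45.7 to 1370). These intervals cover counting error only. Pramel5 was 31.1-fold lower (log2 fold change -4.02), on 11 reads. Pramel13 was 1.59-fold lower, below both control libraries, and Pramel16 1.41-fold and Pramel11 1.91-fold higher, above both, none past 2-fold. Being 1 library, the column has no replicate check. Of the list of 2-cell genes, 4 of 14 compared were higher and 8 lower there than in late 2-cell control, with a median of -1.11 on the log2 scale.

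The Sirt1 knockdown also read differently by header and by tables. By the headers, Pramel7, Pramel6 and Pramel4 were higher, 3 of 10, where 24.3% of 8779 genes were, and Pramel12, Pramel11, Pramel16, Pramel14 and Pramel13 lower, 5 of 10, where 36.6% were. All 8 had libraries apart, and in all genes 18.6% were higher and 25.3% lower in that way. The changes ran from 3.93-fold higher for Pramel6 to 47.4-fold lower for Pramel16, the latter 110.2-fold without library A of the Sirt1/4-cell FK866 column and 30.2-fold without B. The call of Pramel4 was lost without late control library B (0.93 on the log2 scale) and that of Pramel13 without library B of the Sirt1/4-cell FK866 column (-0.94). By the tables, Pramel11 and Pramel16 were higher, where 16.4% of 8622 genes were, and Pramel6 and Pramel1 lower, where 28.2% were, and all but Pramel1 lay beyond both control libraries, where 16.3% of genes were higher and 17.2% lower in that way. Pramel16 then rose 2.94-fold (log2 fold change 1.54), to 122 FPKM against 38.5 and 44.1 in controls, Pramel11 rose 2.85-fold (1.38), to 17.9 FPKM against 8.89 and 3.68 but by 0.93 without control library B, and Pramel6 fell 2.86-fold (-1.40), to 7.57 FPKM against 22.5 and 20.9. Pramel7, at 76.4 FPKM, changed by -0.21 on the log2 scale.

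From late 2-cell to 4-cell controls, Pramel7 and Pramel6 were higher and 5 members lower with libraries apart under both readings. By the headers, Pramel7, Pramel6 and Pramel4 were higher, 3 of 10, where 24.2% of 8868 genes were, and Pramel12, Pramel11, Pramel16, Pramel14 and Pramel13 lower, 5 of 10, where 33.8% were. Libraries were apart for all 8, and in all genes 19.8% were higher and 23.3% lower with libraries apart. Pramel7 rose 4.10-fold (log2 fold change 2.02) and Pramel6 3.36-fold (1.70), while Pramel13 fell 4.09-fold. Pramel16 fell 27.0-fold (-4.06), or 323-fold without library A of the column headed 4-cell control and 14.1-fold without B. The calls of Pramel12 and Pramel14 were lost without late control library B (-0.68) and A (-0.63), respectively. The readings parted on Pramel1 and on Pramel4, which had a rise of 2.96-fold (1.54) by the headers and a log2 fold change of 0.055 with overlapping libraries by the tables.

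FK866 at the 4-cell stage also depended on the choice of columns. By the headers, the single 4-cell FK866 library had 6 of 10 members lower, where 32.9% of 9368 genes were, and 4 higher, where 41.8% were, so that every member was called, each beyond both control libraries, where 29.0% of genes were lower and 41.6% higher in that way. Pramel7 went from 7722 reads in the 2 control libraries to 1, a ratio of 3573 with a 95% exact interval of 641 to 141161, and Pramel16 was 38.1-fold higher (log2 fold change 4.55), or 455-fold without library A of the column headed 4-cell control and 19.9-fold without B. The calls of Pramel4 (-0.94) and Pramel1 (-0.69) were lost without library A of that column and that of Pramel13 (0.97) without B. By the tables, 3 of 9 members were higher, where 21.2% of 7420 genes were, and 2 lower, where 13.4% were, and only Pramel4 had its libraries apart, where 12.7% of genes were higher and 6.99% lower in that way. Pramel4 rose 2.38-fold (1.23), from 10.7 and 54.0 FPKM to 80.8 and 73.2 FPKM, or by 0.51 on the log2 scale without library A of the TSA/4-cell control column, so that no call of this reading held with each library left out. Pramel7 was then within 2-fold, with 332 and 318 FPKM against 331 and 429 in controls, and so was Pramel6.

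Adding NMN at the 4-cell stage gave 5 of 9 members higher by the headers, where 25.0% of 8929 genes were, and none lower, where 34.7% were. Each of these columns is 1 library, which leaves no overlap to be judged, and 25.2% and 34.7% of the genes with separated reads were called. The members were Pramel7, Pramel6, Pramel14, Pramel5 and Pramel16, and the first 3 rose from 1, 1 and 2 reads in the single FK866 library to 1126, 109 and 352 reads in the single FK866+NMN library. By the tables none of 10 was called in either direction, where 14.8% of 7754 genes were higher and 11.5% lower, with libraries apart in 9.55% and 5.17%. Among the members within 2-fold, Pramel14 and Pramel5 had FK866+NMN libraries above both FK866 libraries, by 1.59-fold and 1.46-fold.

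**Figure D3:**
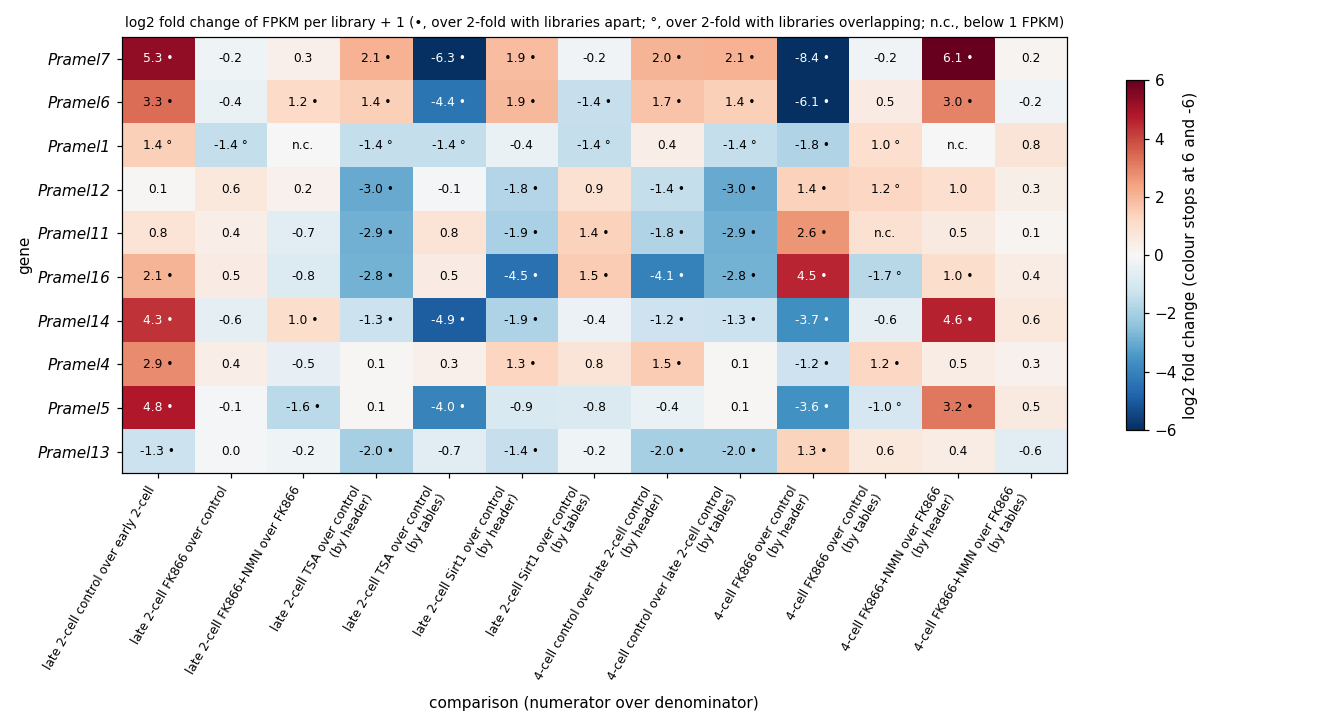
log2 fold change of FPKM per library + 1 for the 10 genes (rows) in the 13 comparisons (columns), with red for higher, blue for lower, a filled dot where the change passed 2-fold with libraries apart, a ring where they overlapped and n.c. where neither column reached 1 FPKM. FK866 at the late 2-cell stage left the row values between -1.44 and 0.64, whereas the comparisons by header that use the column headed 4-cell FK866 held the extremes, -8.36 and 6.14 for Pramel7.

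The libraries of a column agreed best for Pramel7, Pramel13 and Pramel14. Over the 7 columns with 2 libraries, 60 pairs of member values reached 1 FPKM and 27 of them differed by more than 2-fold. Pramel7, Pramel14 and Pramel13 differed in 1 column each, and Pramel12, Pramel11 and Pramel1 in 5 of 6, 5 of 5 and 3 of 3. Among all genes at 1 FPKM, the share over 2-fold ran from 21.7% in the early 2-cell column to the 68.5% of the FK866+NMN column.

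**Figure D4:**
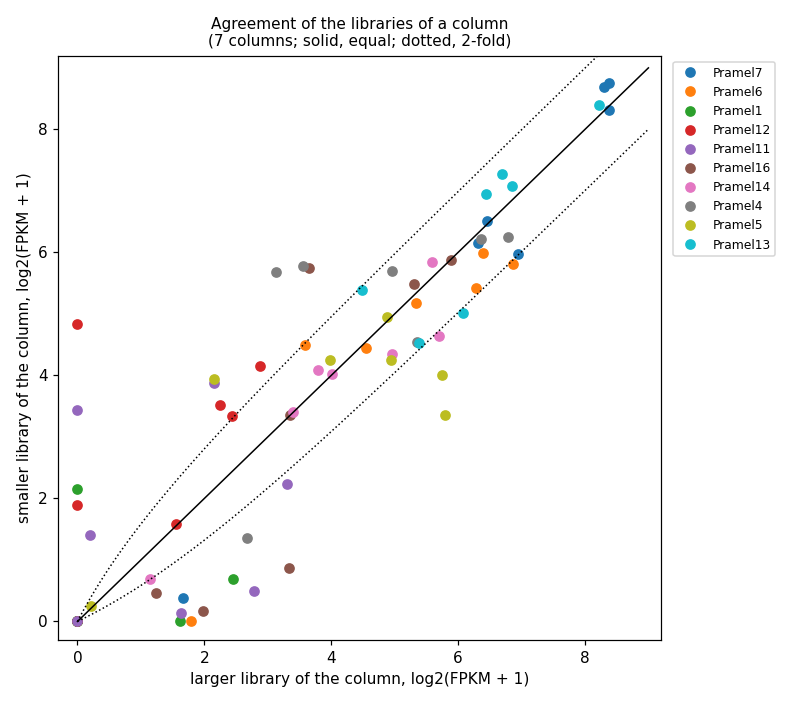
log2(FPKM + 1) of the smaller against the larger library of each of the 7 columns with 2 libraries, coloured by gene, with a solid line where both are equal and dotted lines at 2-fold. Points of Pramel7 and Pramel13 lie within 2-fold except in 1 column each. Points of Pramel12, Pramel11, Pramel1 and Pramel6 on 1 axis, away from 0, are genes read in 1 library and not in the other.

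The genes not counted as family rows by symbol whose levels over the 9 columns were most like those of the 4 most abundant members were taken from 8025 genes, by Pearson's r of log2 levels, as a description. They were Obox8 (r = 0.99), Tor1b (0.99) and Spns1 (0.99) for Pramel7, Ehd4 (0.98), Vta1 (0.97) and 3110009E18Rik (0.96) for Pramel13, and Mbd5 (0.98), Gm16199 (0.97) and Rfpl4b (0.97) for Pramel16. For Pramel4 the closest was Gm13102 (r = 0.996), the copy with which it shares 77.1% of its exon windows, with 31.4 FPKM in late 2-cell control and 94.8 FPKM in the 4-cell control/FK866+NMN column, beside 31.1 and 92.1 FPKM for Pramel4. Ppp1ccb and Mkrn1 came next, at 0.96 and 0.96.

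Of 28 genes that work with the family or in the pathways around it, 14 were in the rows, which lie on chromosomes 1 to 11. Uhrf1 and Cul2 were not among them, so their levels are unknown here. Between early and late 2-cell embryos 3 of 12 compared were higher and 3 lower, where 32.2% and 31.7% of all genes were. The median of the 12 was -0.18 on the log2 scale. FK866 in late 2-cell embryos gave 2 of 12 higher and none lower, where 18.1% and 20.0% of all genes were. NMN gave 2 higher and 3 lower of 13, where 18.9% and 33.3% were. Eloc, the elongin C subunit through which CUL2 ligases hold their substrate receptors, stayed within 2-fold from early to late 2-cell, at 197 and 142 FPKM. It had 391 FPKM in the TSA/4-cell control column and 45.0 FPKM in the 4-cell FK866/TSA library. Dnmt1, the methyltransferase that UHRF1 serves, had 16.4 FPKM in early and 8.12 FPKM in late 2-cell control embryos. Of the transcription factors of naive pluripotency, Klf2 had 3.30 FPKM in early and 13.2 FPKM in late 2-cell control embryos (log2 fold change 1.72), with libraries that overlapped and 0.26 without late control library A, and 117 FPKM in the TSA/4-cell control column, 3.06 higher on the log2 scale than late 2-cell control. Klf4 was 2.88 higher in late than in early 2-cell embryos and had 124 FPKM in the TSA/4-cell control column against 169 FPKM in late 2-cell control (-0.44). In the latter comparison Nanog was 2.47 higher and Tfcp2l1 changed by -0.90, within 2-fold. The shares of all genes called higher and lower follow each count in brackets. By the headers, the Sirt1 comparison had 4 of 13 higher and 4 lower (24.3% and 36.6%). The 4-cell control over late 2-cell control had 3 higher and 3 lower of 13 (24.2% and 33.8%). By the same reading 4-cell FK866 over control had 7 higher and 4 lower of 14 (41.8% and 32.9%). NMN at the 4-cell stage had 1 higher and 7 lower of 13 (25.0% and 34.7%). By the tables, TSA had 4 higher and 3 lower of 13 (30.1% and 29.7%) and Sirt1 none higher and 4 lower of 12 (16.4% and 28.2%). At the 4-cell stage FK866 had 1 higher and none lower of 10 (21.2% and 13.4%) and NMN 2 higher and 1 lower of 11 (14.8% and 11.5%). The comparison headed TSA, which by the tables is that of the 4-cell and late 2-cell controls, had 3 higher and 2 lower of 12 (23.2% and 41.3%).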

How the data were processed

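RNA-seq files of 9 groups were used, and the 24 H3K27ac samples were not analysed here. The authors used CASAVA 1.4 for base calls, Trim Galore for trimming, HISAT2 for alignment to mm10 and featureCounts for counting, and deposited FPKM values, 1 column per group, which are not counts. How reads shared between copies were treated is not given in the sources used here. The file holds 15748 rows on chromosomes 1 to 11, and 15737 complete rows with a symbol listed once were kept. Of these, 15572 were matched to GENCODE M21, by symbol (15360), RefSeq synonym (189) or locus (23). Values times exon length gave whole reads for 97.6% to 97.8% of values above 0, read to 10 printed digits. The 7 columns with 2 libraries hold their sum. The separation was run on data simulated from the separated reads, in which the library totals of every column were recovered. The simulation used the inferred totals and exon lengths, so it checks the decoding alone. It cannot show that the real columns hold these libraries.

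Changes are log2(FPKM per library + 1), called past 1 where a column reached 1 FPKM per library. The 13 comparisons were read by headers and by the study's tables. Members are named by the rule that selects them, other rows by mean level, and likeness by Pearson's r. The members, lists and tests were chosen with earlier results of these data known. As alternatives, the pseudocount was set to 0.1 or 5, the minimum to 5 FPKM or none, values were not divided or were centred, and each library was left out. Promoters are from RefSeq on GRCm38.p6, aligned with Biopython 1.88 under Python 3.11.15. Tables were handled in pandas 2.3.3 with numpy 2.4.6, intervals computed in scipy 1.17.1 and figures drawn in matplotlib 3.10.9.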

Additional observations from a re-analysis of the deposited data

How the results depend on the processing

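No paired analysis was possible because the columns carry no replicate numbers. Of 120 counts of called members recomputed under another setting, 105 stayed within 1.5 times and 15 did not. Of 1146 recomputed values of single members, 1029 moved by less than the spread, 116 moved further and 1, of a member past 2-fold, changed direction. The spread was the standard deviation of log2 levels between libraries of the compared columns. It came from the same libraries that were left out, so 1029 is no measure of stability. Changes of direction were not counted for members within 2-fold or below 1 FPKM. Pramel16, in 4-cell FK866 over control by the tables, went from -1.67 to 0.040 without library A of the column headed late 2-cell TSA. The cause of these shifts was not tested. For FK866 over control at the late 2-cell stage, the 1 called member became 0 with a pseudocount of 5 or a minimum of 5 FPKM, and 1 to 3 when a library was left out. For NMN over FK866 at that stage the count of 3 became 1 with a pseudocount of 5 and 3 to 6 with a library left out, 6 (1 higher, 5 lower) without library B of FK866+NMN and 3 (3 higher, 0 lower) without A. For 4-cell FK866 over control by the tables, the count of 5 became 1 with a pseudocount of 5, 2 with a minimum of 5 FPKM, and 3 to 6 with a library left out, and Pramel4 lost its call without library A of the column headed late 2-cell TSA (0.51). Pramel5 in that comparison changed from -1.002 to 0.11 on the log2 scale without library A of the column headed late 2-cell TSA, and to -1.62 without library B, its range over the libraries left out. For NMN over FK866 at the 4-cell stage by the tables, the count of 0 became 1 with a pseudocount of 0.1 and 1 to 2 with a library left out. The single-library columns have values that cannot be checked against a second one, and members with 1 to 3 reads in a column are limited by counting error.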
